A study of Mus musculus with 6 samples.

Results

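Gap junctions are channels made of connexins that join the cytoplasm of neighbouring cells, and pannexins form related large-pore channels that open to the outside of the cell and let ATP out. In the pancreatic islet, Cx36, the product of Gjd2, is known as the connexin that couples beta cells electrically and so helps them fire together. Cx43 (Gja1) and Cx45 (Gjc1) are found in vessel walls and connective tissue, and Cx32 (Gjb1) and Cx26 (Gjb2) are the connexins of the exocrine acinar cell.

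The 7 genes described here are Gjd2, Gja1, Gjc1, Gjb1 and Gjb2, which encode connexins, and Panx1 and Panx2, which encode pannexins. They were taken by symbol from the 46932 genes kept from the deposited table, and all 7 were found there. The table holds RPKM values (reads scaled by gene length and library size) of 6 libraries from adult mouse islets, 2 for each of 3 populations purified by flow cytometry. All mice carried the same 3 transgenes: mIns1-H2b-mCherry, a red nuclear label driven by an insulin promoter, Sst-cre, a recombinase driven by the somatostatin promoter, and a floxed YFP allele that this recombinase switches on for good. Beta cells were sorted as mCherry-positive, delta cells as YFP-positive, and double-positive cells, which the labels call delta transdifferentiated, carried both labels. The series text once gives an alpha-cell origin for them, and the delta origin of its title, of the labels and of the Cre driver is followed here. Each population has 1 library from a pool of 10 to 12 males (replicate 1) and 1 from a pool of 10 to 12 females (replicate 2), with islets kept overnight in 5.5 mM glucose before sorting. Nothing names cultures or sorts beyond these pools, so p-values measure the spread between pools, which differ in sex.

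The libraries had denominators of 10.9 to 21.6 M reads. The beta markers Ins1, Ins2, Ucn3, G6pc2, Mafa, Slc2a2 and Nkx6-1 summed to between 221900 and 310207 RPKM in beta, 86442 and 94413 RPKM in double-positive, and 1441 and 1767 RPKM in delta cells. The delta libraries also held 14602 and 15876 RPKM of 5 alpha-cell markers and 36498 and 37076 RPKM of the hormones Ppy and Pyy. The double-positive libraries held 1629 and 2378 RPKM and 11877 and 12041 RPKM of these, and the beta libraries 239.5 and 429.3 RPKM and 802.0 and 558.1 RPKM. RPKM is a share of a library, and Ins2 alone had a mean of 206321 RPKM in beta against 1247 RPKM in delta cells. The median log2 fold change of all 13022 genes tested was 0.32 for double-positive minus beta, -0.03 for double-positive minus delta and -0.36 for beta minus delta. After scaling by median-of-ratios factors these medians were -0.0017, -0.0056 and -0.02, and values on that scale are given wherever they change a call.

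Of the 7 genes, 3 had at least 1 RPKM in at least 2 of 6 libraries and entered the test: Gjd2, Panx1 and Panx2. The other 4 connexins were below 1 RPKM in every library and are described by their reads.

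The promoters of Gjd2 and Panx1, the 2 genes with a call on the deposited scale, that of Panx1 marginal, are shown for reference. They are the 250 bases before the RefSeq start (GRCm38.p6, both on the minus strand, printed 5′ to 3′ of the gene). Capitals mark matches on either strand to the cyclic AMP response element half-site TGACG, the GC box GGGCGG and the E-box CANNTG, the kind of site that Neurod1 and related factors bind. No 2 of these matches overlap.
Gjd2, chr2:114013620-114013869: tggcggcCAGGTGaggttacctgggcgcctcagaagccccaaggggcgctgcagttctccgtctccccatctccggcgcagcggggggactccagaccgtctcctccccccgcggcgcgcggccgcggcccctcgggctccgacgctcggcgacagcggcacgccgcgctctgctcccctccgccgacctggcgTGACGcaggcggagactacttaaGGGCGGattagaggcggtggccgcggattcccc
Panx1, chr9:15045479-15045728: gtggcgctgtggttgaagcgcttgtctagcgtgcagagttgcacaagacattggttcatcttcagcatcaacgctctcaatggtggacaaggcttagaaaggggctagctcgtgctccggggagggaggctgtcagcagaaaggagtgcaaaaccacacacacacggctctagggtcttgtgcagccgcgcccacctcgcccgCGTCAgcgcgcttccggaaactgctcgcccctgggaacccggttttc

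The Gjd2 window had 1 match to each motif, with the half-site 56 and the GC box 33 bases before the start and the E-box 243 bases before it. The Panx1 window had 1 half-site, 47 bases before the start, and neither of the others. Among 32817 promoter windows of the same length, 17.7% held the half-site, 32.7% the GC box and 66.2% the E-box, so none of the 3 is rare. The Gjd2 window was rich in G and C (74% against a median of 52.4% over all windows) and held 33 CpG dinucleotides, more than 95.97% of windows. Promoter windows of the same table were matched for 5 of the 7 genes, with 4 starts for Gjb1, while Gjc1 and Panx2 had no entry. A match describes these letters only.

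On the deposited scale Gjd2 RNA was at the beta-cell level in double-positive cells and about 3-fold lower in delta cells. After scaling it was below the beta-cell level in double-positive cells (log2 fold change -0.41, 95% interval -0.69 to -0.13). The gene has 2 exons and lies at chr2:114009601-114013619 (GRCm38, minus strand), with no other annotated gene over it. It was at 82.3 and 97.2 RPKM in the male and female beta libraries, 85.0 and 93.0 RPKM in the double-positive libraries and 25.6 (male) and 28.0 (female) RPKM in delta libraries. The beta and double-positive ranges overlapped, and both delta libraries lay below all 4 others. These values rest on 1250 to 5726 reads a library. The exact 95% Poisson intervals of the male and female delta libraries, 24.2 to 27.0 and 26.4 to 29.5 RPKM, overlapped, and those of the beta libraries did not.

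**Figure D1:**
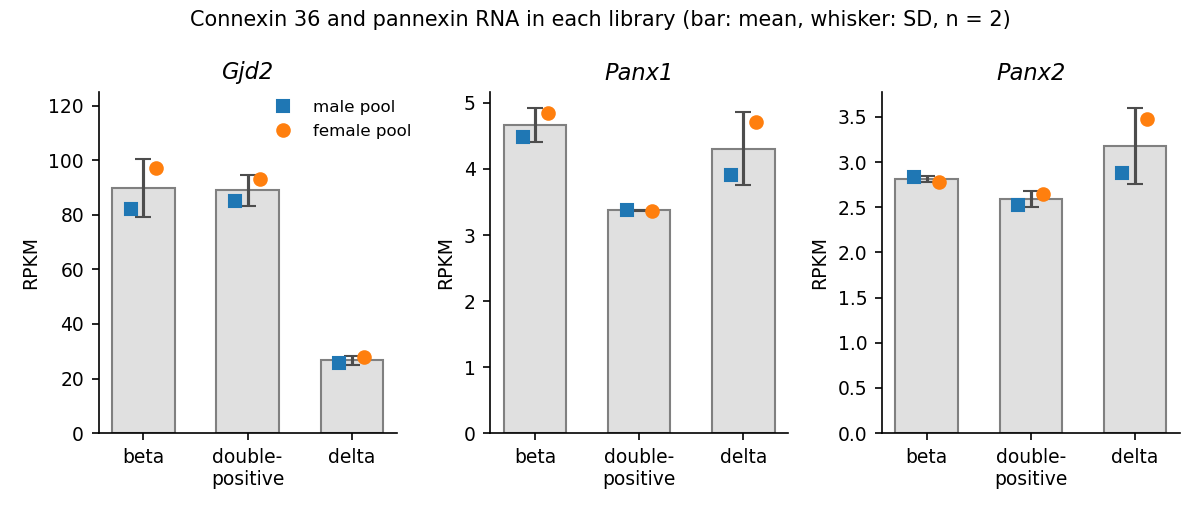
RPKM of Gjd2, Panx1 and Panx2 in the 6 libraries; squares are male pools, circles female pools, bars the mean and whiskers the SD of n = 2 libraries. Gjd2 sits between 82.3 and 97.2 RPKM in beta and double-positive libraries and at 28.0 RPKM or less in delta libraries, while the pannexins stay between 2.53 and 4.84 RPKM everywhere.

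Against delta cells, Gjd2 was higher in double-positive cells (89.0 ± 5.67 against 26.8 ± 1.67 RPKM, SD, n = 2 each) by 1.70 in log2 units (adjusted p = 8.48e-04 by limma, SE 0.13). This was the only call among the 3 tested genes in that comparison, in which 5.53% of all tested genes were called higher and 7.20% lower. Within pools the ratio of RPKM was 3.32 in males and 3.33 in females. After scaling the difference was 1.72 (adjusted p = 7.35e-04), where 5.91% of tested genes were called higher and 6.43% lower. The red label by which double-positive cells were sorted is itself driven by a beta-cell promoter.

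Between beta and delta cells the same gene differed by 1.70 as well (89.8 ± 10.6 against 26.8 ± 1.67 RPKM, SD, n = 2 each; SE 0.13, adjusted p = 9.84e-05, limma), and by 2.13 after scaling (adjusted p = 4.31e-05). On the deposited scale Gjd2 was again the only call among the 3, where 11.7% of tested genes were called higher and 46.3% lower in beta cells. After scaling Panx1 was called higher too, where 27.8% and 29.7% of tested genes were called. The male and female ratios of Gjd2 RPKM were 3.22 and 3.48. These 2 comparisons share the delta libraries.

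Between double-positive and beta cells Gjd2 did not pass the test on the deposited scale: the log2 fold change was -0.01 (SE 0.13, 95% interval -0.31 to 0.29, adjusted p = 0.96, limma). The ratio was 1.032 in the male and 0.956 in the female pool. This result depends on the scale: after median-of-ratios scaling Gjd2 was 81.5 ± 6.60 RPKM in double-positive and 108.6 ± 4.85 RPKM in beta cells (SD, n = 2 each), a log2 fold change of -0.41 (95% interval -0.69 to -0.13, adjusted p = 0.024). On that scale the fall was -0.45 in the male and -0.37 in the female pool, and the call was lost without beta replicate 2 (adjusted p = 0.055), delta replicate 1 (0.053), delta replicate 2 (0.052) or double-positive replicate 1 (0.14). On neither scale was Gjd2 as low as in delta cells.

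Gjd2 was set beside 7 markers that define the beta cell. In double-positive cells it was at 99.1% of its mean beta-cell RPKM on the deposited scale, where the 7 beta markers were at 27.2% (Mafa) to 68.9% (Slc2a2). After scaling Gjd2 was at 81.5 RPKM in double-positive against 108.6 RPKM in beta cells. The marker percentages are given on the deposited scale only. Mafa was uneven, at 20.6 and 81.5 RPKM in the male and female double-positive libraries, and was at 43.4% without the male and 10.97% without the female one. In the same order Slc2a2 was at 87.5% and 50.3%, Nkx6-1 at 74.8% and 50.3%, and Gjd2 at 103.6% and 94.7%. These percentages set 1 double-positive library against the mean of both beta libraries and do not follow the pools. The male and female beta libraries differed too, at 139.6 and 236.1 RPKM for Mafa. Slc2a2 was at 47.3 and 93.2 RPKM in beta and 35.4 and 61.5 RPKM in double-positive libraries (male and female). Nkx6-1 was at 94.5 and 136.4 and at 58.0 and 86.4 RPKM. In delta cells Gjd2 was at 29.8% of the beta level, where those markers were at 0.576% (Ins1) to 5.82% (Nkx6-1), with Ins2 at 0.604%. No test of this difference between Gjd2 and the markers was run. How much of the delta-library Gjd2 came from cells with alpha-cell or Ppy and Pyy RNA was not tested. In bulk libraries fewer cells of a type and less RNA per cell cannot be told apart.

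Gjd2 supplied nearly all connexin RNA. Of the summed RPKM of 20 connexin genes it held 97.5% and 99.3% in beta, 98.4% and 98.96% in double-positive and 95.003% and 96.7% in delta libraries. The remaining 19 connexins together came to between 0.657 and 2.07 RPKM a library. Among the tested genes Gjd2 ranked above 96.8% to 97.7% of genes in beta and double-positive libraries and above 84.6% and 86.6% in delta libraries.

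The 5 genes whose log2(RPKM + 1) followed Gjd2 most closely over the 6 libraries, of 11299 named genes, were Slc30a8, the zinc transporter of insulin granules (Pearson r = 0.997), the galanin receptor Galr1 (0.997), the sulfate-donor enzyme Papss2 (0.996), Ky (0.996) and the cyclic GMP phosphodiesterase Pde5a (0.995). Slc30a8 was at 159.6 and 207.4 RPKM in beta, 159.9 and 195.0 RPKM in double-positive and 43.2 and 41.5 RPKM in delta libraries. All 5 shared the step between delta and the other libraries, and with 6 libraries of 3 populations this is a description only.

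Panx1, the widely expressed pannexin that releases ATP, was lowest in double-positive cells. It lies at chr9:15002128-15045478 (GRCm38, minus strand). The levels were 4.49 and 4.84 RPKM in beta, 3.38 and 3.37 RPKM in double-positive and 3.91 and 4.70 RPKM in delta libraries. Both double-positive libraries lay below the other 4, and the beta and delta ranges overlapped. The deposited values correspond to at least 110 reads in each library.

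Against beta cells Panx1 was lower in double-positive cells (log2 fold change -0.37, SE 0.12, 95% interval -0.67 to -0.08, adjusted p = 0.042, limma). It was the 1 of 3 tested genes called in this comparison, where 51.0% of all tested genes were called, 42.5% higher and 8.46% lower. The fall was larger after scaling (-0.70, adjusted p = 0.0040), and the within-pool values were -0.32 and -0.42 on the deposited scale. The call on that scale is marginal: without any 1 of the 6 libraries the adjusted p was between 0.059 and 0.14, and it was 0.079 with no filter on low values and 0.073 with only the 4 libraries compared. After scaling it held without any 1 library.

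Against delta cells Panx1 in double-positive cells differed by -0.28 (95% interval -0.57 to 0.02, adjusted p = 0.22, limma), which did not pass. Beta and delta cells differed by 0.10 (95% interval -0.20 to 0.39, adjusted p = 0.52). After scaling the beta minus delta difference was 0.45 and passed (adjusted p = 0.017), except without delta replicate 1 (0.33, adjusted p = 0.12).

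The genes that followed Panx1 most closely were Acsf3, a mitochondrial acyl-CoA synthetase (Pearson r = 0.992 over 6 libraries), the ribosomal protein gene Rpsa (0.990), the death-receptor adaptor Fadd (0.989), the kinase Gsk3a (0.987) and the RNA-binding Hnrnpab (0.985). Rpsa has many processed copies in the genome with which its reads may be shared, so its value is uncertain.

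Panx2, a pannexin best known from the nervous system, was close to even across the populations. It lies at chr15:89059734-89073567 (GRCm38, plus strand). The gene 1810021B22Rik, on the other strand, overlaps its span, and the sources used here do not give how strand was counted. Panx2 was at 2.83 and 2.78 RPKM in beta, 2.53 and 2.65 RPKM in double-positive and 2.88 and 3.47 RPKM in delta libraries, from 104 to 220 reads. The double-positive libraries were again the lowest, by a small margin.

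None of the 3 differences of Panx2 passed on the deposited scale. Double-positive minus beta was -0.09 (95% interval -0.38 to 0.21), double-positive minus delta -0.22 (-0.51 to 0.08) and beta minus delta -0.13 (-0.43 to 0.17), with adjusted p of 0.59, 0.33 and 0.40 (limma). After scaling the first became -0.39 (adjusted p = 0.039), a call lost without any library except beta replicate 2. The beta minus delta value turned to 0.19 and did not pass. Panx3 was listed at 0 in all 6 libraries, and Panx1 held 56.0% to 63.5% of the summed pannexin RPKM.

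**Figure D2:**
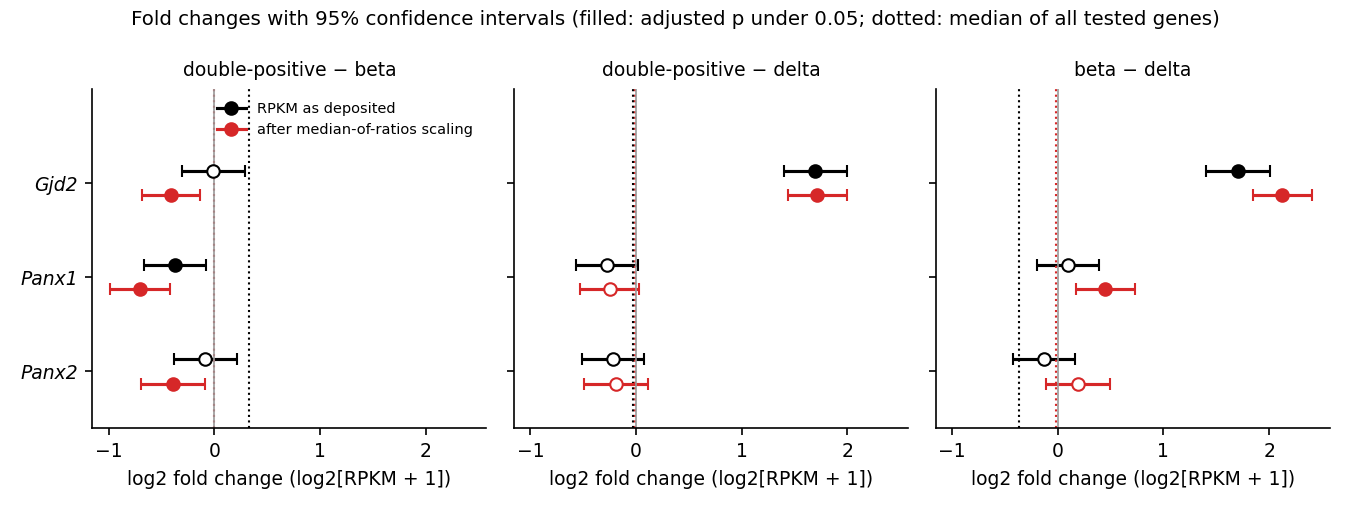
Log2 fold changes of the 3 tested genes on the log2(RPKM + 1) scale with 95% confidence intervals, on deposited RPKM (black) and after median-of-ratios scaling (red); filled points have adjusted p under 0.05 and dotted lines are medians of all tested genes. Gjd2 lies at 1.70 against delta cells for both other populations on the deposited scale, and for double-positive minus beta all 3 genes shift from -0.01, -0.37 and -0.09 to -0.41, -0.70 and -0.39 with the scaling.

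On the scaled data, then, 3 of 3 tested genes were called lower in double-positive than in beta cells, where 26.1% of all tested genes were called lower and 27.8% higher. On the deposited scale this was 1 of 3.

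Gjb2 and Gjb1, the acinar-cell connexins, were present at a few reads and were higher in the male pools. Gjb2 (chr14:57098600-57104702, GRCm38, minus strand) was at 0.597, 0.431 and 0.343 RPKM in the male beta, double-positive and delta libraries, from 31, 13 and 14 reads. In the female libraries it was at 0.0813, 0.0763 and 0.106 RPKM, from 4, 2 and 4 reads. All 3 male values lay above all 3 female ones. The exact 95% Poisson interval, which covers counting error only, was 0.406 to 0.848 RPKM in the male beta library and 0.0221 to 0.208 RPKM in the female one. The male and female intervals overlapped in double-positive (0.230 to 0.737 and 0.00924 to 0.275 RPKM) and in delta cells (0.187 to 0.575 and 0.0289 to 0.271 RPKM).

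Gjb1 (chrX:101376378-101385629, GRCm38, plus strand) had 10, 2 and 4 reads in the male beta, double-positive and delta libraries and 0, 0 and 2 reads in the female ones. Its RPKM was 0.272, 0.0935 and 0.138 in the male libraries. The female beta and double-positive libraries, at 0 reads, allow up to 0.0859 and 0.161 RPKM (3 reads). Over the 3 populations the male pools held 58 reads of Gjb2 and 16 of Gjb1, and the female pools 10 and 2.

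The summed acinar RNA was also higher in the male than in the female library of each population, by amounts that differed between genes. The summed RPKM of 14 acinar genes was 9064 in the male and 375 in the female beta library, 2442 and 168 in the double-positive and 787 and 571 in the delta libraries. In the delta libraries Gjb2 was at 0.343 and 0.106 RPKM, from 14 and 4 reads. Cela1 and Ctrb1 made up much of both sums there. Ctrb1 was at 271.4 and 157.3 RPKM in the male and female delta libraries, and Prss2 at 93.9 and 46.1 RPKM. Between 10 and 11 of the 14 were at 1 RPKM or more in each library. Bhlha15 went the other way, at 18.95 and 33.1, 15.4 and 17.2, and 15.4 and 15.7 RPKM (male and female beta, double-positive and delta libraries). Cela1 did so in delta cells (233.9 and 260.0 RPKM). Amy2a5 was at 0 in all of them, and Ptf1a, a defining acinar transcription factor, was at 0 in 4. Pool and sex cannot be told apart here, and the part of acinar RNA in the Gjb1 and Gjb2 values was not tested.

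**Figure D3:**
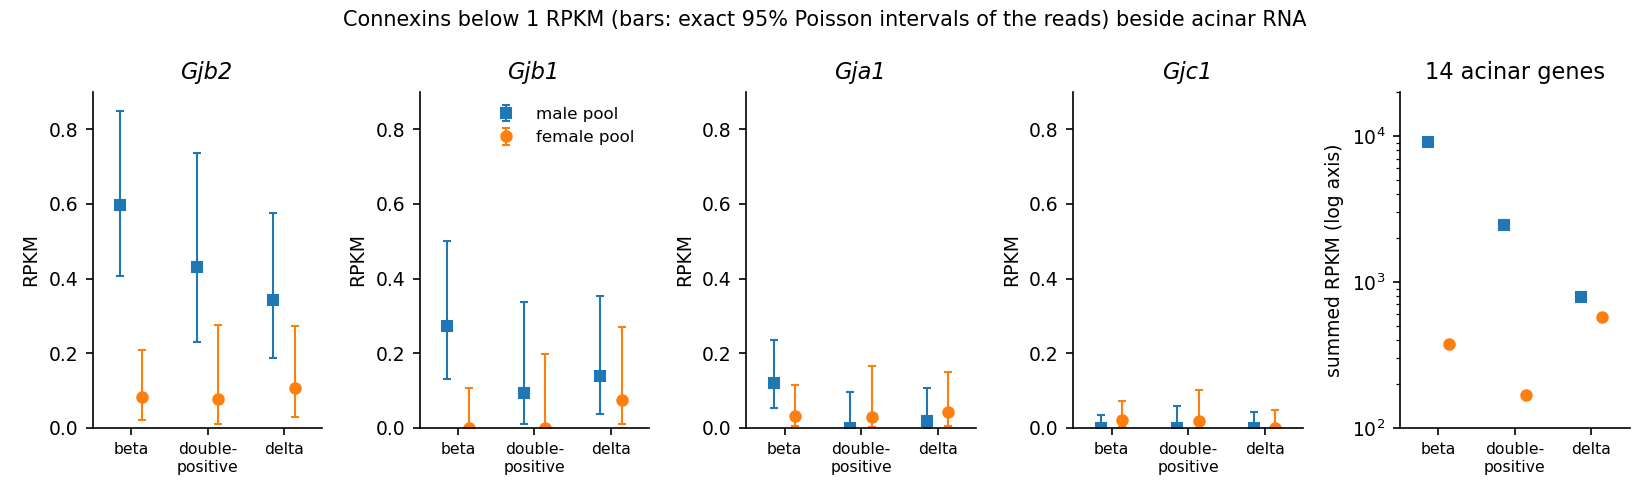
RPKM of Gjb2, Gjb1, Gja1 and Gjc1 by library (squares male, circles female) with exact 95% Poisson intervals, and on a log axis the summed RPKM of 14 acinar genes. Male values of Gjb2 (0.343 to 0.597 RPKM) lie above female ones (0.0763 to 0.106 RPKM) in each population, as do the acinar sums, while Gja1 and Gjc1 stay at 0.119 RPKM or less.

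Gja1 and Gjc1, the connexins of vessel walls and connective tissue, were all but undetected. Gja1 (chr10:56377330-56402513, GRCm38, plus strand) was at 0.119 and 0.0315 RPKM in beta, 0 and 0.0295 RPKM in double-positive and 0.0190 and 0.0411 RPKM in delta libraries, which corresponds to 14 reads in all, 8 of them in the male beta library. Gjc1 (chr11:102799579-102819700, GRCm38, minus strand) had 2 reads in the female beta library, 1 in the female double-positive library and 0 in the other 4. In those 4 libraries 3 reads would be 0.0278 to 0.0478 RPKM. The markers of the cells that carry these connexins were low too: 8 mesenchymal markers summed to between 0.245 and 0.874 RPKM a library, with 0 of 8 at 1 RPKM, and 8 endothelial markers to between 4.09 and 8.47 RPKM. Esam, at 2.64 to 5.49 RPKM, was the largest part of each endothelial sum and was highest in delta libraries. Cdh5, Kdr, Plvap, Emcn and Flt1 were instead highest in the male beta library, with Plvap at 1.77 RPKM. That library held 8 of the 14 Gja1 reads. The part of endothelial RNA in the Gja1 values was not tested. When every gene with a read was tested, the adjusted p of Gjb2, Gjb1, Gja1 and Gjc1 was 0.30 or more in all 3 comparisons (limma).

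The rest of the family was low too, with a highest value of 0.609 RPKM, of Gjd3. Of the 16 other connexins and pannexins none passed the filter, and 4 (Gja3, Gjb5, Gjd4 and Panx3) were listed at 0 in all 6 libraries. Gjd3 had a mean of 0.416 RPKM, and Gja4, the connexin of arterial endothelium, of 0.118 RPKM. Gja4 had 6 and 9 reads in the delta libraries, 4 and 0 in the beta and 1 and 0 in the double-positive libraries.

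Partner genes of gap junctions were drawn from lists of known scaffolds, kinases and regulators. Among scaffolds and adhesion partners, 13 of 14 were tested. In beta minus delta 0 were called higher and 9 lower, where 11.7% and 46.3% of all tested genes were. The median was -0.57 against -0.36 for all tested genes. Cdh2, N-cadherin, was at 8.03 and 11.7 RPKM in beta, 24.97 and 23.3 RPKM in double-positive and 42.9 and 44.7 RPKM in delta libraries. Its values were ordered beta, double-positive, delta with no overlap. Cdh2 differed between beta and delta cells by -2.06 (SE 0.17, adjusted p = 1.5e-04, limma), and higher in double-positive than in beta cells by 1.23 (SE 0.17, adjusted p = 0.0017).

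Jup, plakoglobin of adherens junctions and desmosomes, had the same order, at 12.8 ± 0.633, 19.0 ± 0.803 and 35.2 ± 0.931 RPKM (SD, n = 2 each). It was lower in double-positive than in delta cells (log2 fold change -0.86, SE 0.10, adjusted p = 0.0039, limma). For Jup, double-positive minus beta was 0.53 (adjusted p = 0.0063, limma), a call lost after scaling (0.15, adjusted p = 0.30). Tjp1, the ZO-1 scaffold that binds connexin tails, was at 13.4 and 21.1 RPKM in beta, 35.2 and 32.5 RPKM in double-positive and 36.9 and 34.4 RPKM in delta libraries. Here the double-positive and delta ranges overlapped (log2 fold change -0.07, adjusted p = 0.86, limma), unlike those of Gjd2. Tjp1 was lower in beta than in delta cells (-1.03, adjusted p = 0.0046) and higher in double-positive than in beta cells (0.96, adjusted p = 0.0076, or 0.055 without double-positive replicate 1).

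In double-positive minus beta the scaffold list had 7 of 13 called higher and 0 lower (median 0.37 against 0.32 over all tested genes), and after scaling 2 and 2. Of all tested genes 42.5% were called higher and 8.46% lower there, and 27.8% and 26.1% after scaling. In double-positive minus delta 0 were higher and 2 lower, Cdh2 and Jup, where 5.53% and 7.20% of all tested genes were. The Cdh2 call there (-0.83, adjusted p = 0.023) was lost without any 1 of those 4 libraries. In beta minus delta, scaling changed the split from 0 higher and 9 lower to 2 and 5. On that scale 27.8% and 29.7% of all tested genes were called.

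Kinases, calmodulin and turnover factors that act on connexins were all tested, 17 of 17. In beta minus delta 1 was higher and 9 lower, where 11.7% and 46.3% of all tested genes were, or 7 and 3 after scaling, where 27.8% and 29.7% were. In double-positive minus beta 5 were higher and 2 lower, or 2 and 6 after scaling. Of all tested genes 42.5% and 8.46% were, or 27.8% and 26.1% after scaling. In double-positive minus delta 0 were called (2 with an unadjusted p under 0.05), where 12.7% of all tested genes were. Akt1 was higher in beta than in delta cells by 0.62 (53.9 ± 5.74 against 34.5 ± 1.56 RPKM, SD, n = 2 each). Csnk1e, a casein kinase, and Nedd4 and Smurf2, ubiquitin ligases that act on Cx43, were lower, with log2 fold changes of -1.08, -1.16 and -0.88. These 4 beta minus delta calls kept their direction after scaling and in the other alternatives.

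Of 4 regulators of Gjd2, Rest, the repressor that silences neuronal genes, was below the filter at 0.0770 and 0.0406 RPKM in beta, 0.265 and 0.279 RPKM in double-positive and 0.530 and 0.556 RPKM in delta libraries. Neurod1, an islet activator, was highest in double-positive cells, at 69.1 and 78.9 RPKM against 39.9 and 46.6 RPKM in beta and 43.3 and 38.4 RPKM in delta libraries. Both double-positive values lay above the other 4. It was higher than in beta cells by 0.76 (SE 0.13, adjusted p = 0.0040, limma) and than in delta cells by 0.84 (SE 0.13, adjusted p = 0.0098), the latter lost without double-positive replicate 2 (0.079) or delta replicate 2 (0.095). Between beta and delta cells Neurod1 differed by 0.08 (adjusted p = 0.64, limma), and by 0.50 after scaling, which passed (adjusted p = 0.012). Crem, whose ICER product is a cyclic AMP-responsive repressor, and Rcor1, the REST corepressor, were higher in double-positive than in beta cells. Their differences were 0.53 and 0.55 on the deposited scale. Both calls were lost after scaling (adjusted p = 0.29 and 0.21) and without double-positive replicate 1 (0.067 and 0.085). Without double-positive replicate 2 that of Rcor1 was lost too (0.075).

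Genes that release, sense or break down extracellular ATP, the ligand that pannexins let out, differed in both directions. Of 36 listed genes 19 were tested. In beta minus delta 6 were higher and 9 lower (8 and 7 after scaling). Of all tested genes 11.7% and 46.3% were (27.8% and 29.7% after scaling). In double-positive minus beta 6 were higher and 5 lower (3 and 8 after scaling), where 42.5% and 8.46% of all tested genes were (27.8% and 26.1% after scaling). In double-positive minus delta 5 were higher and 2 lower (6 and 1 after scaling). There 5.53% and 7.20% of all tested genes were (5.91% and 6.43% after scaling).

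Entpd3, an ecto-nucleotidase of beta cells, was at 107.8 and 115.9 RPKM in beta, 92.5 and 88.2 RPKM in double-positive and 50.5 and 52.3 RPKM in delta libraries. It was higher in double-positive than in delta cells by 0.80 (SE 0.10, adjusted p = 0.0048, limma), with 0.051 and 0.052 without delta replicate 1 or 2. Entpd2, another ecto-nucleotidase, was at 6.73 and 6.69, 3.26 and 3.49, and 0.831 and 1.05 RPKM in the same order. Its values stepped down from beta to double-positive to delta cells with no overlap, and it was higher in double-positive than in delta cells by 1.18 (SE 0.12, adjusted p = 0.0022). Entpd5, an enzyme of the endoplasmic reticulum, ran the other way, at 6.77 ± 0.526, 14.1 ± 0.364 and 18.2 ± 1.31 RPKM (SD, n = 2 each).

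Among receptors, the adenosine receptor Adora2b was at 4.197 and 4.56 RPKM in beta, 2.98 and 3.03 RPKM in double-positive and 0.415 and 0.415 RPKM in delta libraries. It was higher in double-positive than in delta cells by 1.502 (SE 0.12, adjusted p = 9.4e-04, limma). The ADP receptor P2ry1 had the opposite order, at 4.34 ± 0.578, 6.64 ± 0.106 and 8.56 ± 0.215 RPKM (SD, n = 2 each), and was lower in beta than in delta cells (log2 fold change -0.84, adjusted p = 0.0013). For P2ry1, double-positive minus beta was 0.52 (adjusted p = 0.011, limma), a call lost after scaling (0.18, adjusted p = 0.17). P2ry12, also an ADP receptor, was at 0.911 and 0.902 RPKM in beta, 1.35 and 1.55 RPKM in double-positive and 0.139 and 0.150 RPKM in delta libraries. It was higher in double-positive than in delta cells by 1.096 (SE 0.13, adjusted p = 0.0039, limma). Double-positive minus beta was 0.36 and did not pass (adjusted p = 0.059).

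The UDP receptor P2ry6 was at 12.0 and 20.0 RPKM in beta, 5.23 and 9.09 RPKM in double-positive and 1.95 and 1.81 RPKM in delta libraries. It was higher in beta than in delta cells by 2.52 (SE 0.29, adjusted p = 5.4e-04, limma). Macrophages also carry P2ry6 and P2ry12, and 8 macrophage markers summed to 152.6 and 170.4 RPKM in beta, 46.7 and 52.4 RPKM in double-positive and 76.3 and 90.7 RPKM in delta libraries. Much of each sum was C1qa (34.9 and 40.5, 29.4 and 32.6, and 59.3 and 76.9 RPKM in that order). C1qb, at 9.76 and 12.3, 0.220 and 0.843, and 0.0542 and 0.0586 RPKM, was ordered beta, double-positive, delta, as P2ry6 was, and so were Csf1r and Adgre1. Cd68, Cd74, Ptprc and Lyz2 were highest in beta cells but did not separate double-positive from delta libraries. Cd68 was at 14.6 and 11.8 RPKM in double-positive and 14.1 and 10.9 RPKM in delta libraries. From beta to double-positive cells C1qb fell by a larger factor than P2ry6. P2ry12 was instead highest in the double-positive libraries. The part of macrophage RNA in the P2ry6 and P2ry12 values was not tested. Ptprc, Adgre1 and Lyz2 were at 0 in some of the double-positive or delta libraries.

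Lrrc8b, a subunit of the volume-regulated anion channel, which also passes ATP and is related in structure to pannexins, showed the largest fold changes of the 52 tested genes of the 4 lists in beta minus delta and in double-positive minus beta. In double-positive minus delta it was -1.05, smaller in size than the differences of Adora2b, P2ry6, Entpd2 and P2ry12, and the call was lost without double-positive replicate 2 (adjusted p = 0.059, limma) or delta replicate 2 (0.058). It was at 0.834 and 1.36 RPKM in beta, 8.85 and 7.97 RPKM in double-positive and 18.4 and 18.5 RPKM in delta libraries. It was higher in double-positive than in beta cells by 2.18 (SE 0.15, adjusted p = 2.1e-04, limma) and lower in beta than in delta cells (log2 fold change -3.22, SE 0.15, adjusted p = 1.5e-05). Lrrc8a, the subunit that every such channel needs, did not pass in any of the 3 comparisons, with log2 fold changes of -0.08, -0.02 and 0.06.

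**Figure D4:**
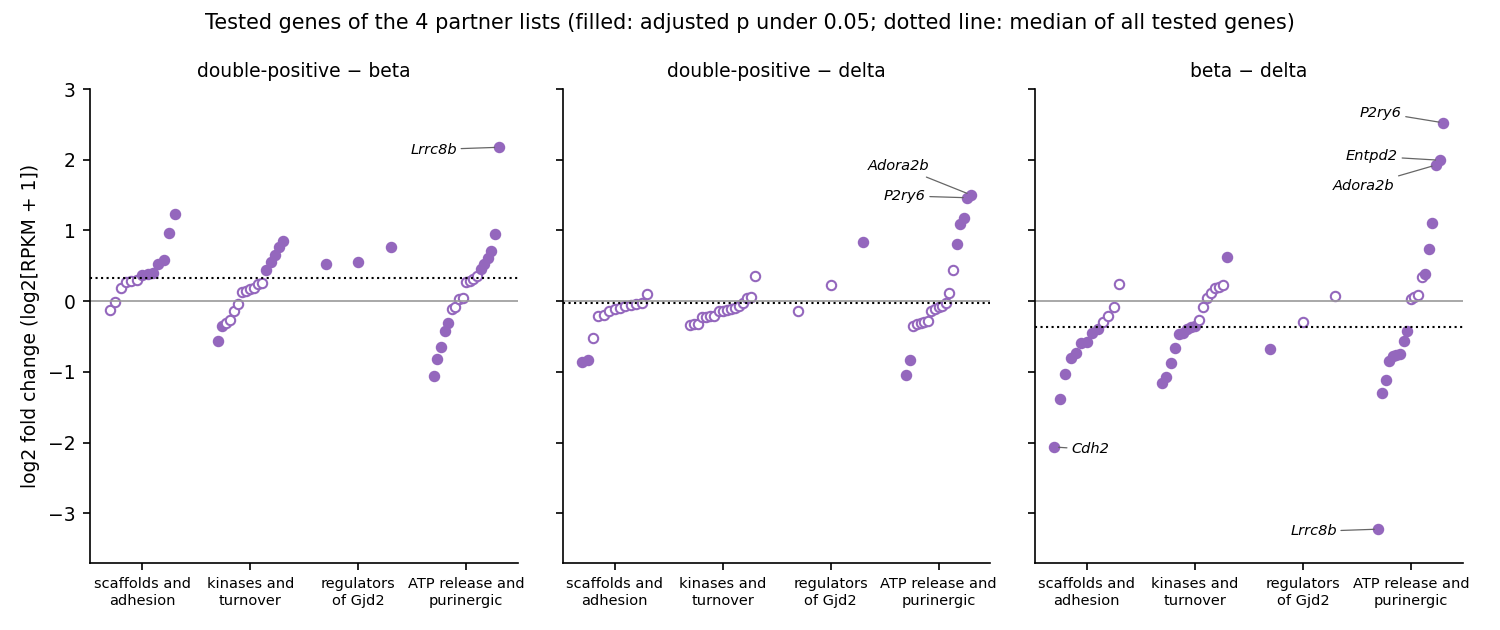
Log2 fold changes of the tested genes of 4 partner lists in the 3 comparisons (filled points: adjusted p under 0.05, dotted line: median of all tested genes, names: called genes past 1.4 in size). In beta minus delta the 9 called scaffold genes all lie below 0, down to -2.06 (Cdh2), and the ATP and purinergic list spreads from -3.22 (Lrrc8b) to 2.52 (P2ry6).

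Over the 4 lists the calls were 35 of 52 tested genes in beta minus delta, 28 in double-positive minus beta and 10 in double-positive minus delta. Each share is to be read beside the 57.9%, 51.0% and 12.7% of all tested genes called in these comparisons. After scaling 13, 13 and 1 of the 35, 28 and 10 calls were lost.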

How the data were processed

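Polyadenylated RNA of 6 libraries was sequenced after TruSeq RNA version 2 preparation, per the labels' protocols. The authors deposited 1 RPKM value per gene symbol and library. STAR 2.5, featureCounts, edgeR 3.14.0 and the build GRCm38.p4 are named, without roles, per the submitters' processing notes.

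From 46959 rows, 27 symbols turned into dates were left out. Denominators were recovered from low values with GENCODE M21 exon lengths: 83.3% to 86.4% of values under 50 reads came out whole (tolerance 0.01 read). Reads per gene were obtained this way, with the shortest length giving whole reads for Gja1 and Panx1. For a gene of 1 kb, 3 reads were worth 0.139 to 0.275 RPKM.

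The 13022 genes that reached 1 RPKM in 2 or more libraries were tested on log2(RPKM + 1) with limma 3.58.1 (R 4.3.3, trend, 2-sided, all 6 libraries in 1 fit, Benjamini-Hochberg over all tested genes, threshold 0.05). Fold changes on this scale understate those of low genes. The script was tested on simulated data. Named partner genes are called genes of largest fold change in each list, at most 6 a comparison, and others named for a role or a limit were chosen after their values were seen.

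Male and female pools pair the libraries, since all 3 populations were sorted from each pool, per the series text. Deviations from the group means correlated at 0.47, 0.24 and 0.36 between populations. The fit without the block is the main one. The member genes and lists were chosen with earlier results of these data known. Values of some listed genes are not reported here.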

Additional observations from a re-analysis of the deposited data

How the results depend on the processing

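Each of the 3 tested genes was refitted in 3 comparisons under 14 alternative settings and 7 more chosen after seeing the data (scaling with the replicate block, and scaling without each library). The Gjd2 calls against delta cells, in double-positive and in beta cells, passed in all 21, at 1.63 to 1.80 and 1.59 to 2.20 on the log2 scale. In double-positive minus beta the member calls went from 1 to 0 with no filter, with only the 4 libraries compared and without each library in turn, and to 3 after scaling. Panx1 there was -0.37 with no filter or only 4 libraries, and -0.42 to -0.33 without each library. Gjd2 there was -0.41 after scaling, with or without the replicate block, -0.13 to 0.11 without each library, and 0.06 without double-positive replicate 1. Panx2 there was -0.39 after scaling, with or without the block. In beta minus delta 2 members were called after scaling, with or without the block (Gjd2 and Panx1, the latter at 0.45). Panx2 was not called and turned to 0.19, and without delta replicate 1 on the deposited scale Panx1 turned to -0.010.

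After scaling, leaving out beta replicate 1 gave 2 member calls in double-positive minus beta (Panx1, and Gjd2 at -0.45) and 2 in beta minus delta (Gjd2, and Panx1 at 0.44), with Panx2 not called at 0.13. Leaving out beta replicate 2 gave 2 (Panx1, and Panx2 at -0.46) and 2 (Gjd2, and Panx1 at 0.47), with Panx2 not called at 0.27 in the latter. Without double-positive replicate 1 or 2, Panx1 was 0.45 and Panx2 0.19 or 0.20 in beta minus delta, and Gjd2 was -0.50 in double-positive minus beta without replicate 2. Without delta replicate 1 Panx2 was 0.081, and without delta replicate 2 it was 0.30 and Panx1 0.57. Partner genes called in double-positive minus beta numbered 8 to 31 without each library, while the calls over all tested genes ran from 4132 to 7086, and after scaling 15 without either double-positive and 18 without either delta library. In double-positive minus delta they numbered 4 to 13 (522 to 2055 over all tested genes), and after scaling 4 without double-positive replicate 2 and 5 and 3 without delta replicate 1 and 2. In beta minus delta they numbered 23 to 37 (5031 to 7823), and after scaling 19 and 21 without delta replicate 1 and 2. Of 28, 10 and 35 partner calls, 7, 4 and 21 held in all of the first 14 settings (double-positive minus beta, double-positive minus delta, beta minus delta). The replicate block, fitted for the paired pools, changed no member call. The cause of these changes was not tested. Gjc1, with 3 reads in all, is limited by depth.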
